A study of Mus musculus with 9 samples.

Results

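The 8 genes described here make or govern cholesterol in the cell: Hmgcs1, Idi1, Fdps, Sqle, Lss and Cyp51, which encode enzymes of sterol synthesis, and Srebf2 and Insig1, which encode 2 of its regulators. They were picked by gene symbol as a pathway, with no threshold on their values but with earlier results of these data known, and all 8 were among the 24930 genes of the deposited expression table. The samples were mouse crypt epithelium, taken 8, 9 or 10 days after a single gain-of-function allele of Ctnnb1, the gene of β-catenin, had been induced. Each of 3 groups, a control and 2 mutant sets, had 1 RNA-seq library on each of those days. By its titles set A carried only the β-catenin mutation, in heterozygous form, and set B was heterozygous for Cdx2 as well, but the library names put CDX2HET on set A and leave it off set B, so which set carries the Cdx2 allele is not settled here. The library names of both sets also carry EXON3, a common short name for a Ctnnb1 allele that loses that exon and so makes a β-catenin protein that escapes degradation. The sources used here do not give the genotype of the controls, the Cre driver, the inducing agent or the age of the mice. They also do not say that each library came from its own mouse. The libraries of a group come from different days. Unless the day is fitted, the variation behind the p-values therefore mixes the day with any mouse or technical differences.

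Cholesterol is built from acetyl-CoA through mevalonate, isoprenoid diphosphates and squalene to lanosterol, which is then trimmed to cholesterol. The transcription factor SREBP2, the product of Srebf2, is held in the endoplasmic reticulum with its escort SCAP by INSIG proteins while sterol is plentiful. When sterol falls, SCAP carries SREBP2 to the Golgi, where proteases release the part that enters the nucleus and raises the genes of sterol synthesis and uptake, and Insig1 with them. In the intestine both the dividing crypt cells, which build membrane, and the absorptive cells, which take sterol from the diet, use this pathway.

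SREBP2 binds short sites called sterol regulatory elements, usually together with the factors NF-Y, which binds CCAAT, and Sp1, which binds GC boxes. Promoter sequences from RefSeq (build GRCm38.p6) were at hand for 6 of the 8 genes, all but Sqle and Fdps, and the 250 bases before the start site were searched on both strands. A CCAAT box was found in 6 of 6 and the GC box GGGCGG in 6 of 6, against 33.9% and 32.7% of 32851 promoters of the same length. The element TCACNCCAC was found in Hmgcs1 alone, against 1.05% of all promoters. Its shorter form CACNCCAC, which lies inside it, was found in Hmgcs1 and Insig1 (5.29% of all promoters), and the form TCACNCCA, which also lies inside it and was added after the sequences had been read, was found in Hmgcs1 and Srebf2 (3.67%). The 3 promoters that hold one of these forms are shown because they belong to the enzyme that makes HMG-CoA and to both regulators. Capitals mark the element or its partial form and each CCAAT box, the last base is position -1, and a CCAAT box on the other strand reads as its reverse complement.
Hmgcs1, chr13:119690101-119690350, + strand: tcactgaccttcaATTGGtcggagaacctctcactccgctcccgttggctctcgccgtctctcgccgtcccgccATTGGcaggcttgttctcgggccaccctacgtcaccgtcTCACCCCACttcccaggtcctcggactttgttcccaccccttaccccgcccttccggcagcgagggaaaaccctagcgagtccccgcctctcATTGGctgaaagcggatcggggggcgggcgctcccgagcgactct
Srebf2, chr15:82147019-82147268, + strand: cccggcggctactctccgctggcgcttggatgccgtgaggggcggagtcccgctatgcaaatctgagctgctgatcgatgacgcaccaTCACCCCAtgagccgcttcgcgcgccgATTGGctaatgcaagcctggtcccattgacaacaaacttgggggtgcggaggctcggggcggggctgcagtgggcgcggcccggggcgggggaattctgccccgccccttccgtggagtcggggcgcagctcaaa
Insig1, chr5:28071162-28071411, + strand: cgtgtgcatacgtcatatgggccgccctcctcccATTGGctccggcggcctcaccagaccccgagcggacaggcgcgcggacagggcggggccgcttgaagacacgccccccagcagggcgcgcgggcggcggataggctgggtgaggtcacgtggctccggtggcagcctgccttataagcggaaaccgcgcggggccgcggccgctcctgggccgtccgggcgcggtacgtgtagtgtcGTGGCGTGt
The whole element lies at -137 to -129 in Hmgcs1. For Hmgcs1 alone, the end of the promoter entry was not found in an annotated sense transcript, so the start site used is less sure. Only partial forms were found in the regulators, TCACNCCA at -162 to -155 in Srebf2 and, on the other strand, CACNCCAC at -9 to -2 in Insig1. A match in letters is a description of the sequence and does not show binding.

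Values are FPKM, fragments per kilobase of transcript scaled to library size, and differences are on the log2(FPKM + 1) scale. Summed FPKM ran from 624923 to 755802 per library. Depth was not measured: 1 FPKM was taken as 16.8 to 19.1 fragments per kilobase, from the median of small values inside a window set beforehand. That window by itself holds the figure near this range. If that figure holds, the lowest value of any of the 8 genes, 7.75 FPKM for Lss, rests on about 145 fragments per kilobase. Epithelial markers summed to 5108 to 5858 FPKM in the 9 libraries, against at most 20.9 for 8 fibroblast, 6.42 for 6 smooth muscle, 14.7 for 9 immune and 0.819 for 5 endothelial markers. None of these markers was at 0 in every library, but 5 of 5 endothelial, 5 of 9 immune, 4 of 6 smooth muscle and 2 of 8 fibroblast markers stayed under 1 FPKM throughout. Set B's day-9 library stood apart: on the first principal component it lay at -19.1, near the controls at -22.7 to -21.6 and away from the other mutants at 2.57 to 30.0. It was also the only library with Y-linked transcripts (a sum of 41.7 FPKM over 4 genes, at most 0.0470 in the others). Xist, which marks female cells, was at 27.0 to 39.4 FPKM in the others and nearly absent from it. By these transcripts it was the only male library and the others were female. It is left out again below where it bears on a call, and such a fit then lacks the only male library. The part of sex in those calls was not tested.

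The 8 genes differed widely in level. Fdps was highest at 128 ± 25.7 FPKM (SD, n = 9), then came Srebf2 at 76.4 ± 7.62 and Hmgcs1 at 62.4 ± 12.9. Insig1 at 53.3 ± 12.2, Idi1 at 53.2 ± 7.99 and Sqle at 52.1 ± 11.2 did not differ beyond their spread. Cyp51 followed at 35.5 ± 5.54 and Lss was lowest at 9.59 ± 1.79. The lowest Fdps value, 99.4, lay above the highest Srebf2 value, 92.4, and the highest Lss value, 12.9, lay below the lowest Cyp51 value, 26.4. Among genes next to each other in this order, only these pairs at its ends were free of overlap.

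**Figure D1:**
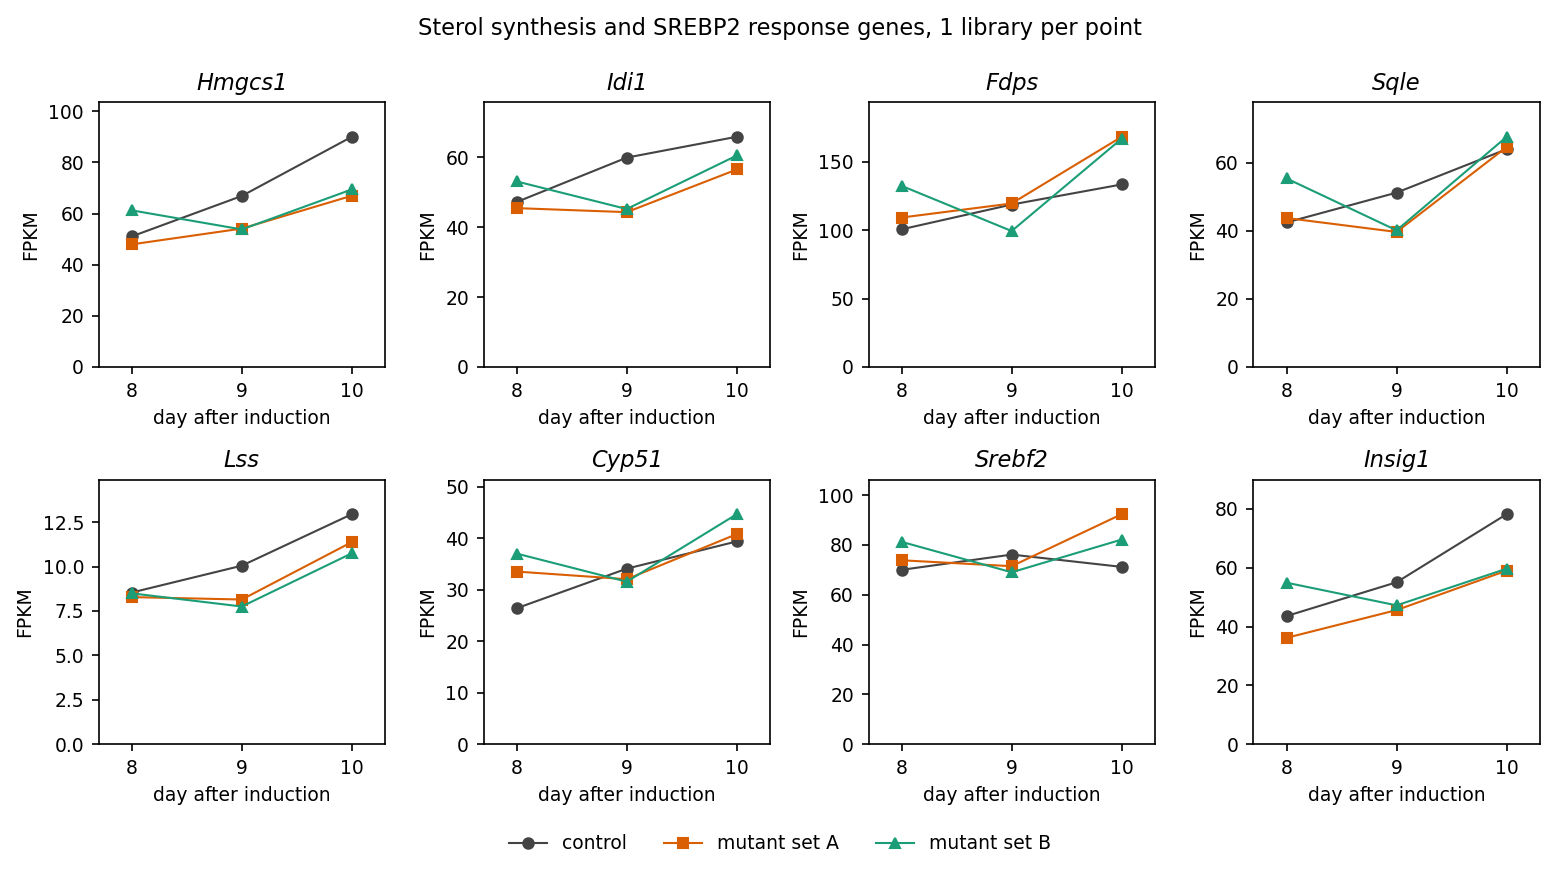
FPKM (vertical axes, each from 0) of the 8 sterol genes against the day after induction (horizontal axes), with 1 point per library and lines that only join the libraries of a group. The day-10 library is the highest of its group for all genes but Srebf2 in control, whose day-9 library is highest at 76.1, and mutant and control points overlap in all 8 panels.

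The enzymes are taken in the order of the pathway. Hmgcs1 makes HMG-CoA, an early intermediate of the pathway. It was at 51.1, 66.9 and 90.1 FPKM on days 8, 9 and 10 in the controls, 47.9, 54.1 and 67.0 in set A, then 61.3, 53.8 and 69.5 in set B. The control library of day 10 was the highest of all 9, and 5 of 6 mutant libraries lay inside the control range. Idi1 isomerises the 5-carbon isoprenoid units. It was at 47.2, 60.0 and 65.9 FPKM in the controls, 45.5, 44.3 and 56.6 in set A, then 53.1, 45.2 and 60.6 in set B. The day-9 mutant libraries were low and the groups overlapped. Its value is uncertain, since 3 annotated copies of Idi1 (gene models Gm13502, Gm35570 and Gm8911) match it over 679 to 684 bases at 90.6 to 100% identity, and they were not analysed here.

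Fdps makes farnesyl diphosphate, where the branches to sterols, ubiquinone and prenylated proteins part. It was at 101, 119 and 134 FPKM in the controls, 109, 120 and 168 in set A, then 133, 99.4 and 167 in set B. The day-10 libraries of both mutant sets were the highest, above every control. Sqle oxidises squalene to its epoxide. It was at 42.4, 51.2 and 63.9 FPKM in the controls, 43.7, 39.6 and 64.6 in set A, then 55.3, 40.1 and 67.6 in set B. The 3 day-10 libraries lay close together, at 65.4 ± 1.95 (SD, n = 3), and above the other 6.

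Lss closes squalene epoxide to lanosterol. It was at 8.54, 10.0 and 12.9 FPKM in the controls, 8.28, 8.14 and 11.4 in set A, then 8.49, 7.75 and 10.7 in set B, so 4 of 6 mutant libraries lay below every control. Cyp51 removes the 14α-methyl group of lanosterol. It was at 26.4, 34.1 and 39.4 FPKM in the controls, 33.5, 32.0 and 40.8 in set A, then 37.0, 31.6 and 44.7 in set B. The day-8 control library was its lowest and 4 of 6 mutant libraries lay inside the control range.

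Of the 2 regulators, Srebf2 was the flatter. It was at 70.0, 76.1 and 71.2 FPKM in the controls, 73.9, 71.5 and 92.4 in set A, then 81.3, 69.0 and 82.2 in set B. Control spanned little more than 6 FPKM, 3 mutant libraries lay above it and 1, set B's from day 9, lay below. Insig1, which is both a brake on SREBP2 release and one of its targets, was at 43.6, 55.0 and 78.2 FPKM in the controls, 36.2, 45.6 and 59.0 in set A, then 54.9, 47.2 and 59.7 in set B. Its day-10 control library was well above all others and 5 of 6 mutant libraries lay inside the control range.

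Comparing the mutants with control asks whether the mutant allele went with another level of the sterol genes. None of the 8 passed: in limma, 0 of 8 had an adjusted p under 0.05 for both sets against control, where 140 of 12097 genes tested (1.16%) did. At an unadjusted p under 0.05 the count was 0 of 8, against 21.0% of all genes. Of the 140, 62 were higher, and with libraries rescaled to equal totals 133 of 169 were. The fold changes were small and split, 3 positive and 5 negative, with a median of -0.10 against 0.00 for all genes. Idi1, with the smallest adjusted p, averaged 57.7 ± 9.55 FPKM in control (SD, n = 3) and 50.9 ± 6.86 in the mutants (n = 6), a log2 difference of -0.18 ± 0.14 (standard error, adjusted p = 0.497). Fdps had the largest positive fold change, at 118 ± 16.5 and 133 ± 29.3 FPKM (log2 0.15 ± 0.19, adjusted p = 0.686).

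The spread between libraries, which in this fit holds the day, leaves room for moderate differences. The 95% intervals ran from a fold of 0.629 (the lower bound of Insig1) to 1.51 (the upper bound of Fdps), and the narrowest, that of Srebf2, from 0.922 to 1.26. When the day was fitted as a block, 1 of 8 genes had an unadjusted p under 0.05 in limma, against 22.1% of all genes, and 0 of 8 passed. With set B's day-9 library left out 0 of 8 passed as well, while the count over all genes went from 140 to 995. For Sqle, Insig1 and Cyp51 the sign itself depended on the processing or on single libraries. Over the same alternatives the Hmgcs1 difference ran from -0.40 to -0.0001.

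**Figure D2:**
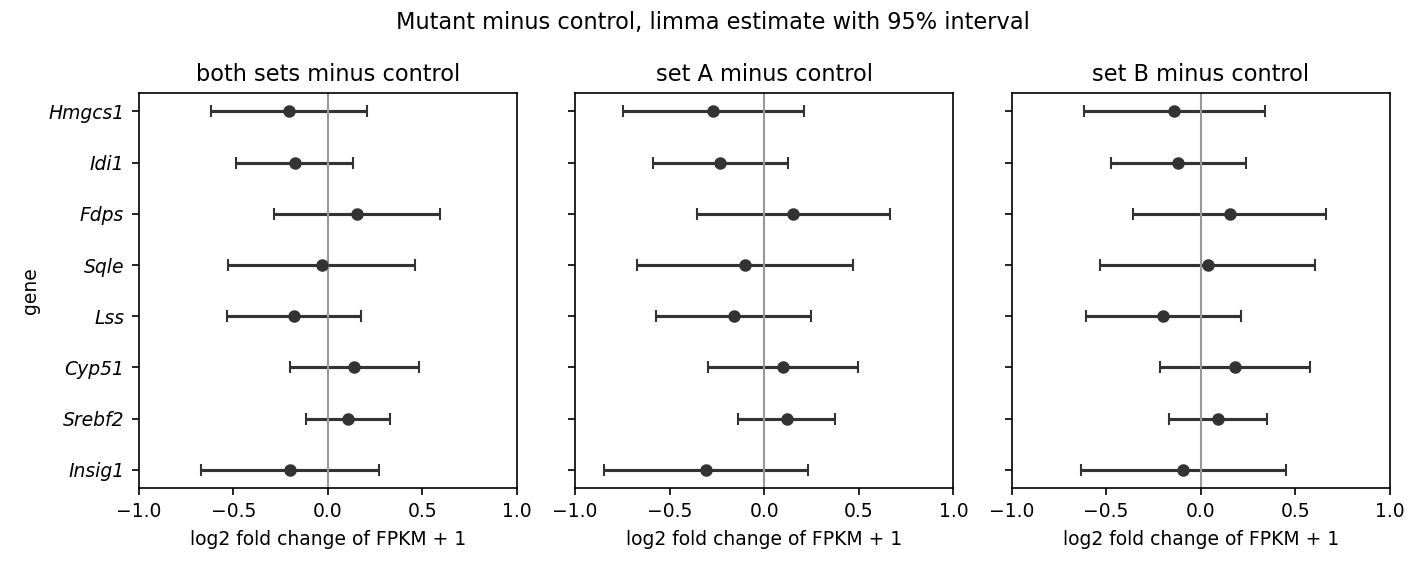
Difference between mutant and control libraries (horizontal axis, log2 of FPKM + 1) for the 8 sterol genes, with points for the limma estimates and bars for their 95% intervals. All 24 intervals include 0, and estimates run from -0.31 (Insig1, set A) to 0.18 (Cyp51, set B).

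Each mutant set was also set against control, and the 2 comparisons share the control libraries. In set A 0 of 8 genes passed (0.215% of all genes did), with adjusted p from 0.479 to 0.867. In set B 0 of 8 passed (0.628% of all genes did), with adjusted p from 0.616 to 0.957. Set B against set A gave 0 of 8 at an adjusted p of 0.05, as for all genes (0%, with 376 of 12097 at an unadjusted p under 0.05), and 0 of 8 at an unadjusted p under 0.05. The 95% intervals of that difference reached from a fold of 0.703 to 1.69. The replicate block, which compares libraries of the same day, also left 0 of 8 called in each of these comparisons.

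Within days the mutants lay on both sides of control. On day 8 set B was above control for 7 of 8 genes (median log2 difference 0.29) and set A for 4. On day 9 set A was below control for 7 and set B for 8 of 8 (medians -0.27 and -0.28). On day 10 each set was above for 4 and below for 4. These are differences of single libraries, with no replicate within a day. Some markers of other cells and states went with the mutant groups. Of the proliferation markers 10 of 10 had negative differences, 1 of them called (1.16% of all genes were). Their sums were 513 to 580 FPKM in control and 401 to 469 in the mutants. Paneth cell markers had 8 of 9 negative and 6 called, with sums of 56634 to 94824 and 15621 to 36406. A list of immediate early and heat-shock genes, drawn up for handling stress, had 9 of 11 tested positive and 2 called. The heat-shock genes Hspa1b (log2 -0.58) and Dnajb1 (-0.11) were negative. Sums over 13 genes were 242 to 260 and 317 to 362, and whether handling played a part was not tested. These calls were unsteady: each of the 9 markers called was lost in at least 2 of 9 fits with single libraries removed, and Mcm5 and Ang4 were called in 1 of the 9. Enterocyte markers did not go with the groups, with 5 of 14 positive, 9 negative and 0 called. Their sums ran from 4109 to 9172 FPKM in control and from 3359 to 10023 in the mutants. They were highest in the day-8 control library and in set B's day-9 library. The part of all these markers in the values of the sterol genes was not tested. In bulk RNA fewer cells of a type and less RNA per cell cannot be told apart.

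What the libraries did share was the day. In each group the day-10 library was the highest of the 3 for Hmgcs1, Idi1, Fdps, Sqle, Lss, Cyp51 and Insig1, that is for 7 of 8 genes, a pattern shown by 8.75% of all genes tested and looked for after the values had been seen. Day 10 stood above day 8 by a median of 1.50-fold in control (1.02 for Srebf2 to 1.79 for Insig1), 1.39-fold in set A (1.22 to 1.63) and 1.17-fold in set B (1.01 to 1.27). For 6 of the 8 genes, the 3 day-10 libraries all lay above the other 6, as they did for 279 of 12097 genes tested (2.31%). A slope per day shared by the groups was positive for 8 of 8, with a median of 0.22 on the log2 scale against 0.01 for all genes.

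The trend fell short of the threshold. In limma 0 of 8 sterol genes and 0% of all genes passed for the slope (adjusted p = 0.959 for each of the 8), while 7 of 8 had an unadjusted p under 0.05, where 390 of 12097 genes (3.22%) did. Insig1 had the steepest slope, 0.27 ± 0.07 per day, followed by Hmgcs1 at 0.24 ± 0.06, and Srebf2 the flattest, 0.06 ± 0.06. The count of 7 fell to 3 of 8 without the day-8 or the day-10 control library, or without the day-10 library of set A or of set B, and was again 7 when set B's day-9 library was left out. With separate slopes, Hmgcs1 was at 0.40 ± 0.09 per day in control and 0.16 ± 0.06 in the mutants and Insig1 at 0.41 ± 0.11 and 0.20 ± 0.08. Fdps and Srebf2 went the other way, at 0.20 ± 0.15 and 0.24 ± 0.11 and at 0.01 ± 0.10 and 0.08 ± 0.07, so the mutant slope was the smaller for 6 genes and the larger for 2. The difference between slopes, also examined after the values had been seen, passed for 0 of 8 genes and for 0% of all genes (696 of 12097 had an unadjusted p under 0.05, none of them among the 8).

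The scaling of the libraries bears on the day pattern. Summed FPKM was 726553 to 755802 on day 10, above the 644810 to 706691 of day 8 and the 624923 to 639315 of day 9. With libraries rescaled to equal totals, the median slope of all genes moved from 0.01 to -0.05 and that of the 8 sterol genes from 0.22 to 0.16, and 5 of 8 had an unadjusted p under 0.05 (2.92% of all genes). The day-10 library was then highest in every group for 3 of 8 (Hmgcs1, Sqle and Lss) and for 1.13% of all genes, and the slope of Srebf2 turned to -0.00. Crypt stem cell markers had negative slopes for 7 of 7 genes (0 called), and immune markers summed to 3.04 to 7.74 FPKM on day 10 against 6.83 to 14.7 before. Epithelial markers were at 5266 to 5858 on day 10 and at 5108 to 5847 before. With separate slopes, enterocyte markers were negative for 13 of 14 genes in control and positive for 13 of 14 in the mutants (0 called). The mutant slope minus the control slope was positive for 14 of 14 enterocyte markers and negative for 10 of 10 proliferation markers (0 called). The part of these marker changes in the day pattern was not tested, and with 1 library per group and day, a day and its libraries cannot be told apart.

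**Figure D3:**
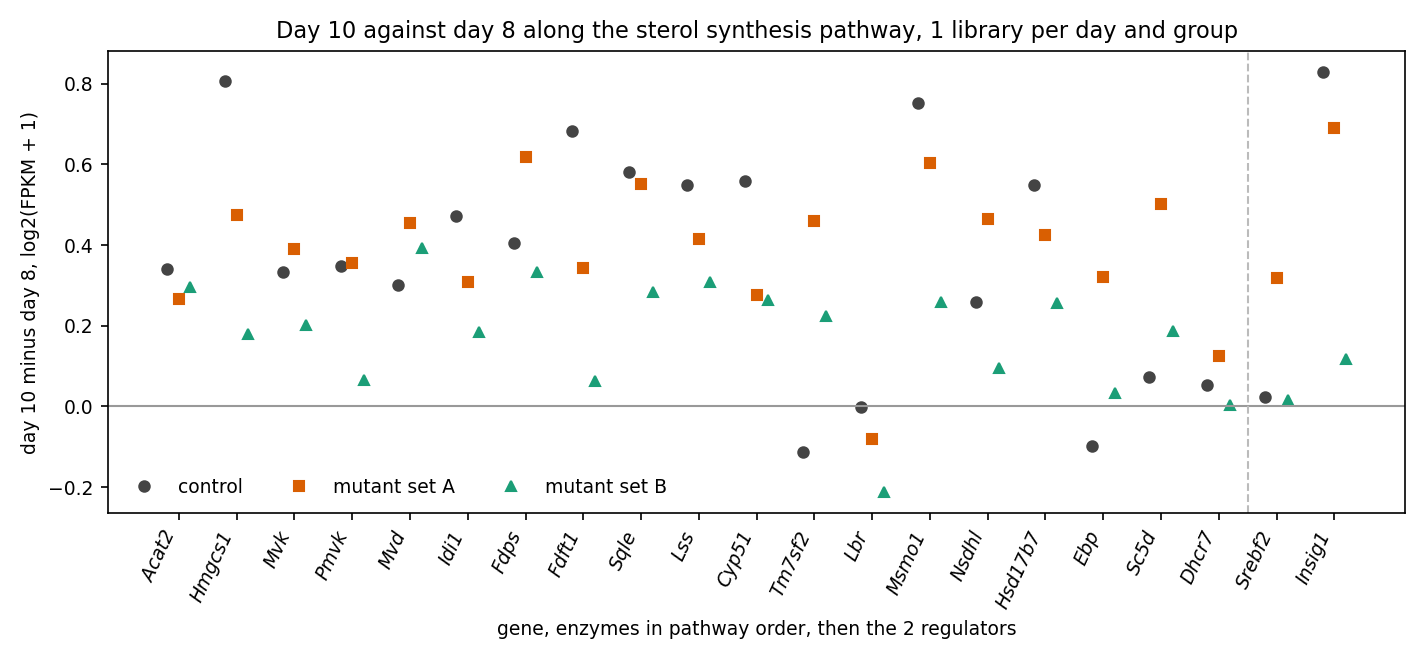
Day-10 minus day-8 difference (vertical axis, log2 of FPKM + 1) for enzymes of sterol synthesis in pathway order and, right of the dashed line, 2 regulators, with 1 point per group, each the difference of 2 libraries. The largest values are those of Insig1 (0.83) and Hmgcs1 (0.81) in control, and Lbr is at or below 0 in all 3 groups.

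Most of the 8 genes varied together over the 9 libraries. Among the 7 without Srebf2 the 21 pairwise Pearson correlations of log2 values ran from 0.63 to 0.98 (median 0.86), while Srebf2 correlated with the others at 0.29 to 0.85 (median 0.43). These 9 points share the day, the scaling and the library, and the correlations are given as a description. Among 7582 other genes of sufficient level, the 5 whose log2 values followed the mean standardised level of the 8 most closely over the 9 libraries included Msmo1 (Pearson r = 0.98), Mtmr2 (0.94), Eif3e (0.94) and Tm2d1 (0.94). Fdft1 ranked 8.

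The rest of the pathway was read from a list of 15 further enzymes. For both sets against control 0 of 15 passed in either direction, 8 were positive and 7 negative, and the median was 0.06. Fdft1, squalene synthase, was at 32.9 ± 8.06 FPKM in control (SD, n = 3) and 33.9 ± 5.31 in the mutants (n = 6). For the day, 9 of 15 had their highest value on day 10 in every group (8.75% of all genes), and the slope was positive for 14 and passed for 0. Msmo1, a C4-methyl sterol oxidase, was at 56.3, 68.9 and 95.4 FPKM in the controls, 55.4, 56.6 and 84.6 in set A, then 75.9, 58.7 and 91.1 in set B, highest on day 10 in each group. With equal totals 2 of 15 kept day 10 as the highest in every group.

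Mutant and control libraries did not overlap for 12.6% of all genes tested, for 0 of the 8 sterol genes and for 3 of the 15 further enzymes. Against that background the 3 do not set these enzymes apart, and with libraries rescaled to equal totals only Tm7sf2 was still free of overlap. The 3, Lbr, Tm7sf2 and Dhcr7, are named because of their values. Lbr and Tm7sf2 encode enzymes for the same reaction, the reduction of the C14 double bond, and LBR is also a protein of the inner nuclear membrane. Lbr was at 40.2, 43.9 and 40.2 FPKM in the controls, 35.3, 30.9 and 33.3 in set A, then 33.9, 35.2 and 29.1 in set B, lower in 6 of 6 mutant libraries (log2 -0.32 ± 0.08, adjusted p = 0.0785). Tm7sf2 was at 19.5, 18.4 and 17.9 FPKM in the controls, 22.8, 21.0 and 31.7 in set A, then 23.0, 22.8 and 27.0 in set B, higher in 6 of 6 (log2 0.38 ± 0.12, adjusted p = 0.145). The paired values thus lay on opposite sides of control, and neither passed over all genes.

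Dhcr7, the last enzyme of one branch of the pathway, was at 43.8, 49.1 and 45.5 FPKM in the controls, 37.3, 40.8 and 40.8 in set A, then 33.8, 36.6 and 33.9 in set B. All mutant libraries lay below control, those of set B lowest (both sets against control log2 -0.31 ± 0.06, adjusted p = 0.0590). When set B's day-9 library was left out, Lbr and Dhcr7 passed (log2 -0.35 ± 0.08, adjusted p = 0.0343, and -0.32 ± 0.06, adjusted p = 0.0266). In that fit 995 of 12000 genes passed, against 140 of 12097 with all libraries, and both estimates moved little. Over 15 alternatives the adjusted p ran from 0.0246 to 0.308 for Lbr and from 0.0121 to 0.268 for Dhcr7. Summed proliferation markers were lower in the same libraries, as given above, and their part was not tested.

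**Figure D4:**
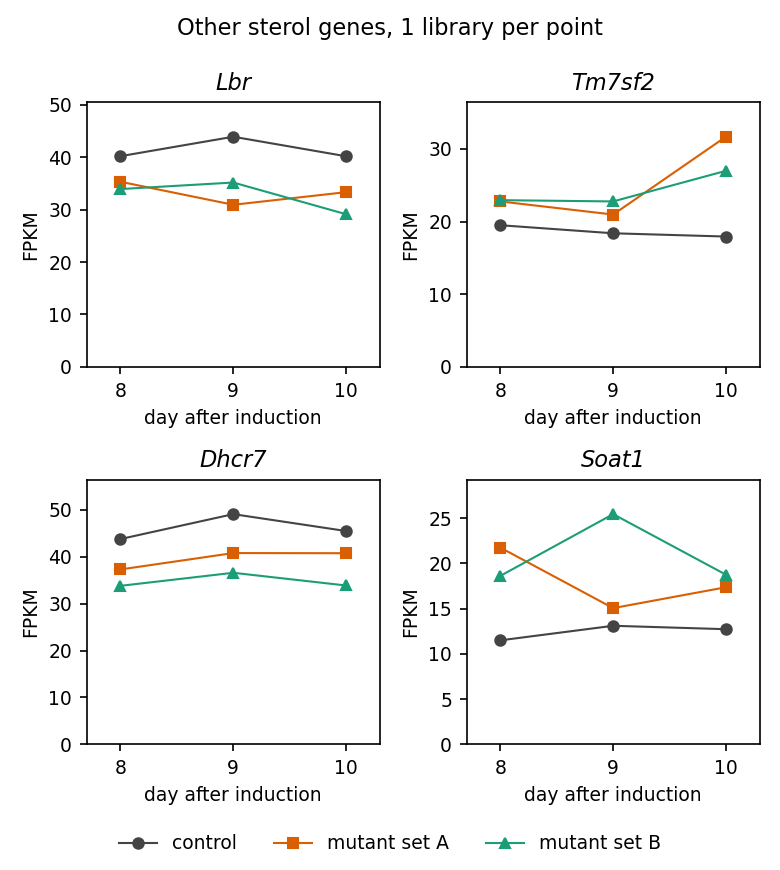
FPKM (vertical axes, each from 0) of 4 further sterol genes against the day after induction (horizontal axes), with 1 point per library and lines that only join the libraries of a group. Lbr and Dhcr7 lie below control and Tm7sf2 and Soat1 above it in 6 of 6 mutant libraries. The 4 were named for their values, and mutant and control libraries did not overlap for 12.6% of all genes tested.

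Of 14 genes of SREBP processing 0 passed for both sets against control (median 0.07) and 0 for the slope (median -0.00). Since 1.16% and 0% of all genes passed, counts of 0 in lists of this size tell nothing particular about them. Scap, the sterol sensor that escorts SREBP2, was at 27.6 ± 1.83 FPKM in control (SD, n = 3) and 26.2 ± 1.71 in the mutants (n = 6). Insig2, the INSIG form not driven by SREBP2 in the same way, was at 10.1 ± 2.27 and 10.9 ± 1.54, and Srebf1, whose products favour fatty acid synthesis, at 35.1 ± 2.83 and 37.6 ± 2.49. Of 12 genes of the isoprenoid branch, which leads to ubiquinone, dolichol and prenylated proteins, 0 passed (median 0.05). Sterol uptake was read from 16 genes, 15 of them tested, of which 0 passed for both sets against control (median 0.02).

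Sterol storage and efflux, which lower free sterol in the cell, were read from 13 genes, 9 of them tested. For both sets against control 0 of 9 passed, 8 were positive and the median was 0.32. Soat1, which esterifies cholesterol for storage and is named for its values, was at 11.5, 13.1 and 12.7 FPKM in the controls, 21.7, 15.1 and 17.4 in set A, then 18.6, 25.4 and 18.8 in set B. It was higher in 6 of 6 mutant libraries without overlap (log2 0.59 ± 0.13, adjusted p = 0.0724). Overlap was absent for 1 of the 9 tested genes of this list and for 12.6% of all genes tested. Soat1 passed with set B's day-9 library left out (log2 0.52 ± 0.11, adjusted p = 0.0322, in a range of 0.0220 to 0.229 over 15 alternatives). In that fit 995 of 12000 genes passed, against 140 of 12097 with all libraries. Soat2, the paralog of Soat1, was at 60.7, 34.6 and 37.3 FPKM in the controls, 47.6, 56.9 and 63.5 in set A, then 52.2, 50.2 and 61.3 in set B. Its day-8 control library lay inside the mutant range.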

How the data were processed

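Poly(A) RNA of crypt epithelium was sequenced in paired ends, per the labels' protocols, in 9 libraries. The authors deposited 1 table of gene-level FPKM values; the unit was inferred from the values (not whole, unequal sums, smallest values shrinking with transcript length over 1800 genes with 1 annotated transcript). Named in the submitters' processing notes, with no role for any of them, are the build mm9, kallisto 0.46.1 and DESeq2 1.40.1; the sources used here state no annotation or filter.

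Samples were grouped by title. Log2(FPKM + 1) was fitted with limma 3.58.1 in R 4.3.3 over the 12097 genes that reached 1 FPKM in 3 or more libraries, as group means with trended, robust moderation, with a threshold of 0.05 on Benjamini-Hochberg adjusted p-values over all of them. This pseudocount understates changes of low genes. A further fit held a slope per day. The fit was tested on simulated data. Alternatives changed the pseudocount (0.1), the filter (none, or 5 FPKM) or the scaling (equal totals), weighted the libraries, took the day as a block, kept only the groups compared, or dropped each library in turn. The titles give the shared days that the block uses, although same-day deviations from group means correlated at only -0.24 to 0.62 over genes, and under 0.1 for all 6 pairs of a control with a mutant library. The day pattern, its values under other settings, and separate slopes were added after seeing the data. Near-identical transcripts (at least 90% over 300 bases) were sought with blastn 2.17.0 in GENCODE M21.

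The 8 genes and all lists were chosen with earlier results of these data known. The text names the 8, Fdft1, Scap, Insig2, Srebf1, passing list members, and the 5 genes most like the 8; some other genes this rule names are not reported here. The genes Lbr, Tm7sf2, Dhcr7, Soat1, Soat2, Scd2, Fasn, Mlxipl and Lpcat3 were named after their values were seen.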

Additional observations from a re-analysis of the deposited data

How the results depend on the processing

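Of the 8 sterol genes, 0 were called in every comparison with limma under each of the alternatives run, the 9 fits that each left out a library included. For both sets against control the smallest adjusted p of any of the 8 under any alternative was 0.196 (Lss with the replicate block, log2 -0.18). The sign was kept under all 15 alternatives by Hmgcs1, Idi1, Fdps, Lss and Srebf2, under 14 by Insig1 and Cyp51 and under 10 by Sqle, whose difference ran from -0.17 to 0.12. That of Hmgcs1 ran from -0.40 to -0.0001, so its sign was kept by almost nothing at the upper end. The replicate block could not be fitted with the slope, and the slope uses all groups. The slope stayed positive under 14 alternatives for 7 genes and under 13 for Srebf2. The number of the 8 with an unadjusted p under 0.05 for the slope, main value 7, was 5 to 7 when the scaling, filter, pseudocount or weights changed and 3 to 7 without single libraries. Lbr, Dhcr7 and Soat1 passed under 2 of 15 alternatives each, once with set B's day-9 library left out and once with library weights, and Tm7sf2 under 0. The count of all genes called for both sets against control was 140, 995 when set B's day-9 library was dropped and 1438 with library weights. With equal totals it was 169, of which 133 were higher, against 62 of 140. The lowest value of the 8 genes would rest on about 145 fragments per kilobase, by the assumed and unmeasured depth given above. There are 3 libraries per group and 1 per group and day.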

Other observations

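Fatty acid synthesis, which the related factor SREBP1 favours, was read from 16 genes, 14 of them tested, and 0 passed for both sets against control (3 positive, 11 negative, median -0.12). Scd2, a stearoyl-CoA desaturase, was at 20.5, 33.6 and 27.1 FPKM in the controls, 37.9, 30.2 and 54.9 in set A, then 46.8, 37.3 and 48.6 in set B (log2 0.64 ± 0.21, adjusted p = 0.150 in limma), and 5 of 6 mutant libraries lay above every control. Mlxipl, which encodes the carbohydrate-responsive factor ChREBP, was at 86.0, 89.4 and 78.4 FPKM in the controls, 65.7, 72.5 and 53.6 in set A, then 56.0, 88.0 and 51.9 in set B (log2 -0.41 ± 0.17, adjusted p = 0.220 in limma). Only set B's day-9 library overlapped control, and without it Mlxipl passed (log2 -0.52 ± 0.10, adjusted p = 0.0278 in limma, in a range of 0.0278 to 0.494 over 15 alternatives). In that fit 995 of 12000 genes passed, against 140 of 12097 with all libraries. Fasn, the fatty acid synthase, ranged from 29.5 to 35.5 FPKM in control and from 23.3 to 34.7 in the mutants.

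Lpcat3, a phospholipid acyltransferase induced by the sterol-sensing LXR receptors, was at 117, 97.1 and 90.2 FPKM in the controls, 115, 145 and 158 in set A, then 142, 136 and 154 in set B (log2 0.48 ± 0.12, adjusted p = 0.0848 in limma). Of the 6 mutant libraries 5 lay above every control.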
